A study of Homo sapiens with 6 samples.

Results

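Integrins and laminins are the receptors and the ligands of one adhesion system, and their probe sets were followed here in A-498 cells after zebularine. Members were all probe sets whose array annotation gives exactly 1 symbol of the integrin alpha, integrin beta or laminin chain genes. The rule took 68 of 22215 probe sets, for 33 genes: 24 probe sets of 16 integrin alpha genes, 24 of 7 integrin beta genes and 20 of 10 laminin genes. The rule used no measured value. ITGB6, whose probe sets share a second symbol, is outside it.

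The human line A-498 was established from a renal cell carcinoma. Zebularine resembles cytidine and blocks the enzymes that methylate DNA. One group was 3 cultures kept with 1000 µM zebularine for 120 h, and the other was 3 cultures kept without the drug for the same time. Both groups were monolayers of the same line in the same serum-containing medium, passaged during the experiment. The titles number the arrays of each group as biological replicates 1 to 3, and the arrays of 1 number are called an experiment here. Each experiment gave 1 zebularine and 1 untreated array of total RNA, so the values describe 1 cell line, 1 dose and 1 time.

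Integrins are heterodimers of an alpha and a beta chain that span the plasma membrane. Outside the cell they bind matrix proteins or receptors on other cells, and inside it they link to the actin or keratin cytoskeleton. The alpha chain largely sets the ligand: collagens, laminins, or proteins with the Arg-Gly-Asp motif such as fibronectin and vitronectin. Laminins are secreted trimers of an alpha, a beta and a gamma chain, and they form the network on which a basement membrane is built. Kidney tubule cells rest on such a membrane and hold to it through laminin-binding integrins.

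Signals are linear intensities in units of the Affymetrix MAS5 method, and array medians ran from 118 to 141. Both arrays of experiment 3 were dimmer at the top of the range, with maxima of 27499.7 on the zebularine and 31176 on the untreated array, against 58719 to 62832 on the other 4. The 3'/5' signal ratio, which tracks intact RNA and even labelling, ran from 1.01 to 1.34 on zebularine and from 1.07 to 1.52 on untreated arrays for GAPDH. For ACTB it ran from 1.49 to 5.25 on zebularine and from 1.71 to 3.10 on untreated arrays. In each group both ratios were highest in experiment 1, where that of ACTB was 5.25 with zebularine and 3.10 without it. On the arrays of experiments 2 and 3 the ACTB ratio was 1.49 to 2.38. Of the 9 listed markers of kidney epithelium and renal carcinoma lines, 7 were measured and all 7 were bright enough to test. PAX8, a kidney lineage factor, stood at 635.8 to 1094.2 on zebularine and 1034.2 to 1237.1 on untreated arrays. CDH6, a cadherin of kidney tubule and renal carcinoma cells, was the 1 of these 7 that was called: it read 174.5, 102.8 and 209.1 with zebularine and 1407.4, 2209 and 584.4 without it, and fell by 2.85 ± 0.42 (adjusted p = 0.0206 by limma). KRT19, a keratin of simple epithelia, stood at 209.8 to 384.9 with zebularine and 34.5 to 230.6 without it (adjusted p = 0.251 by limma). Their part in the results on integrins and laminins was not tested. Of 25 measured markers of white blood cells, endothelium, platelets and fibroblasts, 3 were bright enough to test (FCER1G, TEK and COL1A1), and none of these was called.

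Differences are on the scale log2(signal + 16.34), zebularine minus untreated. This scale understates the change of dim probe sets. Testing required a signal of 78.6 or more on 3 or more arrays, a level that 40% of values fall below. That left 33 integrin and laminin probe sets of 19 genes, while 35 probe sets were too dim, and 14 genes had no tested probe set. A call needed a Benjamini-Hochberg adjusted p under 0.05 in limma, over the 13545 probe sets tested. By this test 1 of the 33 probe sets was called, that of ITGA2, beside 0.62% of all tested probe sets. Same-numbered arrays deviated together, so each result is also given with the experiment as a block where that changes its call. With the block 6 of the 33 were called, all 6 higher after zebularine, beside 4.22% of all tested probe sets (1.9% called higher and 2.32% called lower). These 6 belong to ITGA2, ITGA6, ITGB3 with 3 probe sets, and LAMB3, so they stand for 4 genes.

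**Figure D1:**
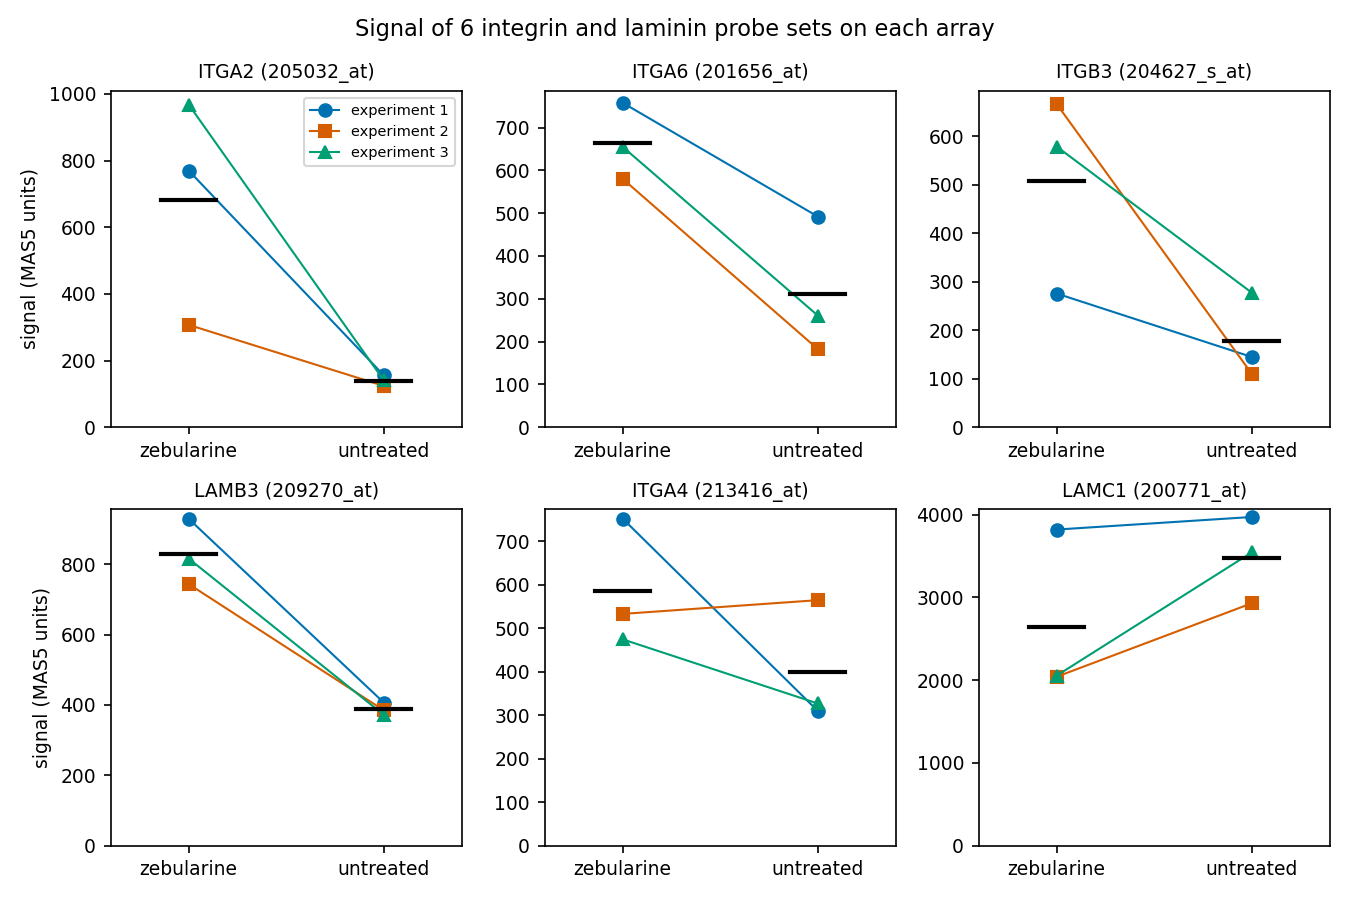
Signal in MAS5 units on each array for 6 probe sets, zebularine at the left and untreated at the right of each panel; lines join the arrays of 1 experiment and black bars are means of 3 arrays. For ITGA2, ITGA6 and LAMB3 every zebularine array lies above every untreated array; for ITGB3 the lowest zebularine value (275.9) meets the highest untreated value (277.7); ITGA4 and LAMC1 overlap.

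ITGA2 rose after zebularine. It encodes the alpha 2 chain, which pairs with beta 1 as a receptor for collagens and, in some cells, laminins. Its probe set (205032_at, chromosome 5) read 770, 307 and 968.2 on the zebularine arrays of experiments 1, 2 and 3, against 155.6, 123.7 and 140.4 on the untreated arrays. The untreated values lay close together, and all 3 zebularine values stood above them. The means were 682 ± 339 with zebularine and 140 ± 16.0 without it (SD, n = 3 each). The log2 difference was 2.02 ± 0.38 (standard error; adjusted p = 0.0397 by limma, 0.00479 with each experiment as a block). By experiment it was 2.19, 1.21 and 2.65, smallest in experiment 2. Without the block the call ended when any 1 of the 6 arrays was left out: the difference then ran from 1.70 to 2.50 and limma's adjusted p from 0.0645 to 0.125. With the block it stood when any 1 experiment was left out, with limma's adjusted p from 0.000389 to 0.0352. RNA from a whole culture cannot tell a change in the share of expressing cells from a change in RNA per cell. This holds here and for every other gene.

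ITGA1 and ITGA10, which also encode alpha chains of collagen receptors, were dim. ITGA1, the alpha 1 chain, read 38.8 to 80.4 on zebularine and 69.5 to 88.8 on untreated arrays at its 1 probe set. ITGA10, the alpha 10 chain, known from cartilage, read 13.9 to 60.8 with zebularine and 46.8 to 117.9 without it. Neither was tested, and in both genes the groups overlapped.

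Among the alpha chains of laminin receptors, ITGA6 was called higher in the blocked fit and ITGA3 was not called. ITGA6 encodes the alpha 6 chain, which pairs with beta 1 or beta 4. At 201656_at (chromosome 2) it read 757.9, 580.3 and 655.1 on the zebularine arrays of experiments 1, 2 and 3, against 492.2, 182.5 and 260.9 on the untreated arrays. All zebularine values lay above all untreated values, although untreated 1 came near them. The means were 664 ± 89.2 with zebularine and 312 ± 161 without it, and the log2 difference was 1.16 ± 0.34 (adjusted p = 0.178 by limma, 0.0291 by the blocked fit). The blocked call ended without experiment 3 (adjusted p = 0.0663 by limma) and stood at 0.0476 and 0.0498 without experiments 1 and 2. The second ITGA6 probe set, 215177_s_at, read 403.5, 543.8 and 367.8 with zebularine and 309.7, 256.4 and 150.8 without it. Its difference was 0.87 ± 0.32 (adjusted p = 0.28 by limma, 0.0866 by the blocked fit), and its groups did not overlap either.

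ITGA3, the alpha 3 chain, which pairs with beta 1 in kidney epithelium, read 1592.6, 840.6 and 1361.3 with zebularine and 1477.2, 583.5 and 1176.1 without it. The spread between experiments was wider than the difference within any of them. The log2 difference was 0.28 ± 0.35 (adjusted p = 0.797 by limma), and it was -0.11 without untreated 2. ITGA7, the alpha 7 chain of muscle, was too dim at both of its probe sets, from 7.6 to 45.5 on zebularine and from 6.1 to 66.4 on untreated arrays. ITGB4, the beta chain that anchors keratin filaments at hemidesmosomes with alpha 6, was too dim at all 4 of its probe sets. Its signals ran from 7.9 to 69.2 with zebularine and from 3.9 to 97.8 without it.

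ITGB1, the beta chain shared by most of these receptors, gave a signal among the brightest on the arrays. Its probe set 211945_s_at (chromosome 10) read 21654.5, 17989.1 and 14524.3 on the zebularine arrays of experiments 1, 2 and 3, against 14652.8, 16781.5 and 12356.4 on the untreated arrays. Each zebularine array was above its own untreated partner, and the groups overlapped. The log2 difference was 0.30 ± 0.25 (adjusted p = 0.668 by limma). A further pair of tested ITGB1 probe sets, both of the type that can bind related transcripts, was dim and stood at 0.26 and -0.06. Both changed sign when single arrays were left out. The other 2 probe sets of ITGB1 read 10.6 to 19.1 with zebularine and 4.8 to 67.6 without it, and were not tested.

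Among the receptors for fibronectin, vitronectin and related ligands are those with ITGA5 or ITGAV as alpha chain and beta 1, 3, 5, 6 or 8 as partner. ITGB3 is the beta 3 chain, which pairs with alpha V or, in platelets, with alpha IIb. It was called higher after zebularine at 3 of its 5 tested probe sets once the experiment was a block. At 204627_s_at (chromosome 17) it read 275.9, 667.1 and 579.3 on the zebularine arrays, against 144.9, 110.3 and 277.7 on the untreated arrays of experiments 1, 2 and 3. Zebularine 1 and untreated 3 were nearly equal there, but within each experiment the zebularine array was higher. The difference was 1.44 ± 0.40 (adjusted p = 0.15 by limma, 0.0298 by the blocked fit).

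At 204628_s_at ITGB3 read 305.8, 409 and 290 with zebularine and 183.3, 142.5 and 114.4 without it. The groups were apart, at a difference of 1.11 ± 0.31 (adjusted p = 0.16 by limma, 0.048 by the blocked fit). At 204625_s_at the values were 133.1, 359.6 and 218.5 with zebularine and 9.9, 124.8 and 53.8 without it. They were apart as well, at 1.89 ± 0.60 (adjusted p = 0.216 by limma, 0.0297 by the blocked fit). Of those untreated signals 2 were below the level of the filter, and the size of this difference ran from 1.27 with 4 times the pseudocount to 2.43 with none. The other 2 tested ITGB3 probe sets, 204626_s_at and 216261_at, differed by 0.46 ± 0.54 and -0.04 ± 0.48 (adjusted p = 0.779 and 0.985 by limma), and another pair was too dim to test. These last 4 probe sets had no zebularine signal above 181.2. The blocked calls did not all stand without single experiments. Without any 1 experiment 204628_s_at and 204625_s_at were not called, with limma's adjusted p from 0.0961 to 0.139 and from 0.0575 to 0.0874. That of 204627_s_at was 0.066 without experiment 2, 0.0457 without experiment 1 and 0.0112 without experiment 3.

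**Figure D2:**
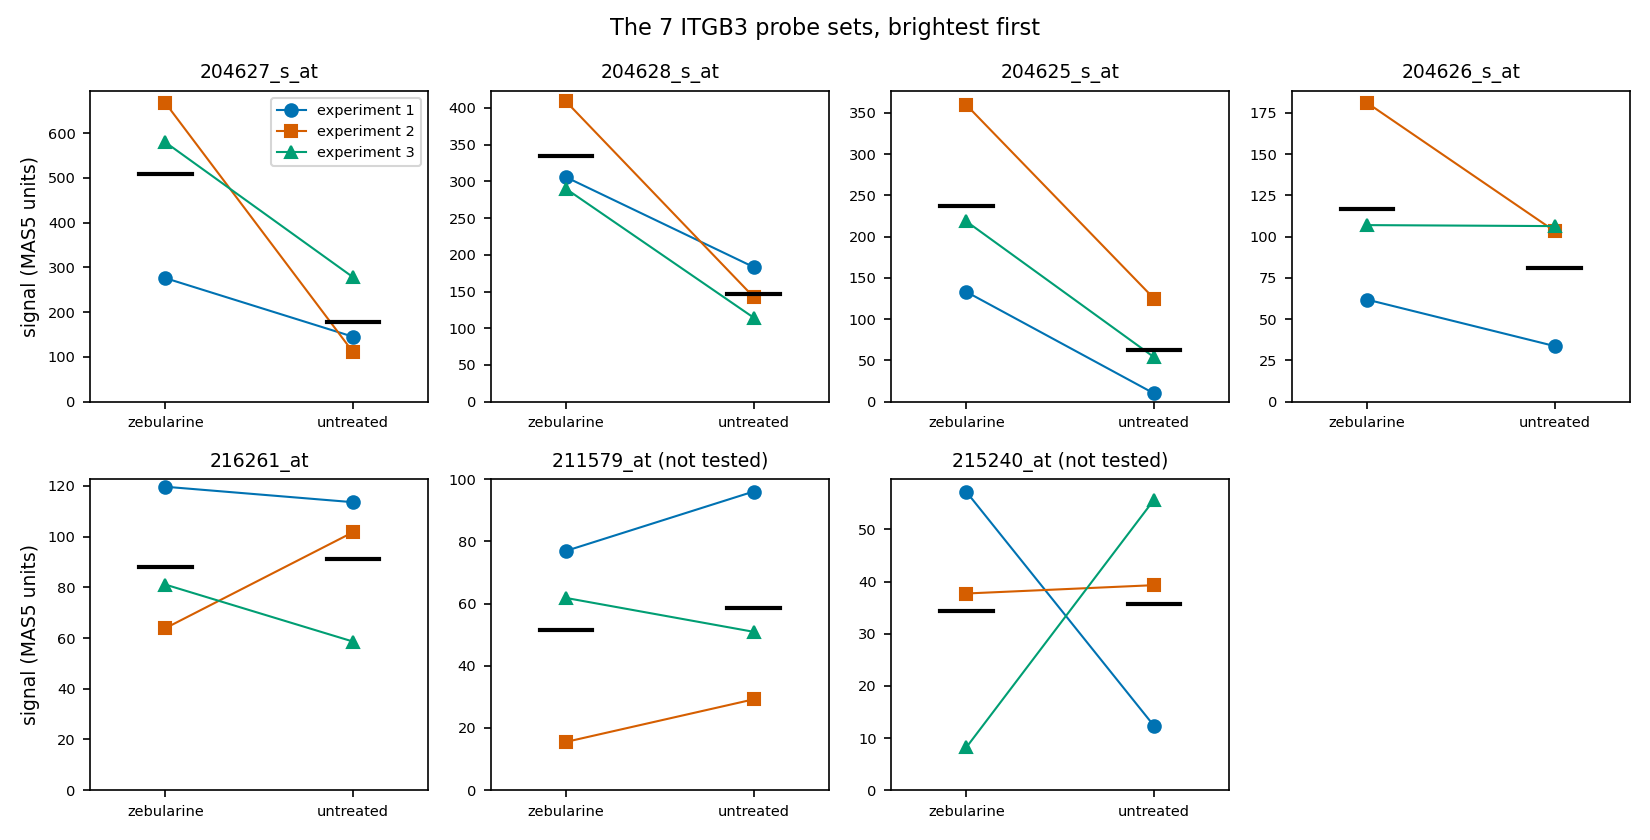
Signal in MAS5 units for the 7 ITGB3 probe sets, ordered by mean signal, zebularine at the left and untreated at the right; lines join arrays of 1 experiment and black bars are means of 3 arrays. In the 3 brightest panels every line falls towards untreated; in 216261_at and the 2 probe sets that were not tested the lines run both ways.

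ITGAV, the alpha V chain that partners beta 3 and beta 5, read 8589.3, 5343.7 and 6925.4 on the zebularine arrays and 6439.4, 6815.2 and 5531.5 on the untreated arrays. It was higher with zebularine in experiments 1 and 3 and lower in experiment 2, and the mean difference was 0.13 ± 0.25 (adjusted p = 0.875 by limma). ITGA5, the alpha chain of the main fibronectin receptor, read 1711.4, 1501 and 1789.4 with zebularine and 1583.8, 709.7 and 1502.3 without it. Its difference of 0.47 ± 0.31 (adjusted p = 0.562 by limma) was 0.11 without untreated 2, the lowest of its 6 arrays. FN1 itself, the fibronectin gene, fell by 1.82 on the same scale (adjusted p = 0.0241 by limma).

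ITGB5, the beta 5 chain of a vitronectin receptor, gave no single direction. Its brightest probe set, 201125_s_at, read 2948.7, 2232 and 1903.7 with zebularine and 1453.6, 2012.8 and 2406.9 without it, for a difference of 0.27 ± 0.27 (adjusted p = 0.723 by limma). The order of the groups turned between experiments 1 and 3. Another pair of tested probe sets stood at 0.55 ± 0.32 and -0.37 ± 0.29 (adjusted p = 0.518 and 0.635 by limma). The remaining probe set of ITGB5 was not tested. ITGB8, the beta 8 chain, which with alpha V can release active TGF-beta from its latent form, was too dim at both probe sets, between 3.7 and 83.8 with zebularine and 3.5 and 64.1 without it.

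ITGA8, the alpha 8 chain needed for kidney development, was also too dim to test. It read 56.4, 64.3 and 34.3 on the zebularine arrays and 7.9, 8.4 and 13 on the untreated arrays. The groups were apart, but all 6 values lay below 78.6. Without the filter its difference was 1.36 (adjusted p = 0.312 by limma, 0.197 by the blocked fit). None of the 35 untested integrin and laminin probe sets was called without the filter in limma, with or without the block, and 1 had an unadjusted p under 0.05 in the fit without the block, against 9.67% of all probe sets. ITGA2B, the platelet alpha IIb chain, had 1 tested probe set, at 79.9, 25.4 and 31.1 with zebularine and 78.9, 104.3 and 54.5 without it. Its difference was -0.70 ± 0.62 (adjusted p = 0.689 by limma), and its other 3 probe sets ran from 5.6 to 86.9 with zebularine and from 3.2 to 15.6 without it. Of 9 measured endothelial and platelet markers 1 was bright enough to test (TEK), and their summed signal was 327.7 to 386.9 on zebularine and 300.8 to 483.4 on untreated arrays. VWF, which was not tested, read 98.3, 99.5 and 22.1 with zebularine and 11.4, 7.1 and 20.5 without it. Its groups were apart, but its arrays of experiment 3 were nearly equal. In each of the other markers, TEK included, the groups overlapped.

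The alpha 4 chain, ITGA4, which binds VCAM1 and fibronectin and is known from white blood cells, was measured by 3 tested probe sets. At the brightest, 213416_at, it read 752, 532.9 and 474.4 with zebularine and 309.9, 564.5 and 326.9 without it. Experiment 2 showed nearly equal arrays. The 3 probe sets differed by 0.56, 0.84 and 0.98 (adjusted p = 0.486, 0.414 and 0.372 by limma), and none was called with the block (adjusted p from 0.126 to 0.273). The third, 205884_at, is the 1 member that reached the filter on zebularine arrays alone, so its difference is partly set by that filter. ITGA9, a chain related to alpha 4, read 34.9 to 50.1 with zebularine and 52.3 to 73 without it. Its groups were apart, but all 6 values lay below the filter and it was not tested.

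Most integrins of white blood cells were at the edge of measurement. ITGB2, the beta 2 chain of the main white blood cell integrins, was too dim, at 10.1 to 34.6 on zebularine and 5.4 to 17.8 on untreated arrays. Its partners ITGAL and ITGAM each had 1 tested probe set, at mean signals of 80.1 ± 3.30 and 125 ± 12.8 with zebularine and 65.9 ± 55.5 and 73.5 ± 56.1 without it (SD, n = 3 each). Their differences were 0.43 ± 0.60 and 0.94 ± 0.60 (adjusted p = 0.816 and 0.559 by limma), and untreated 2 was the lowest ITGAM array, at 11.7. ITGAX ran from 61.4 to 89.7 with zebularine and 34.3 to 69.3 without it, and ITGB7, the beta 7 chain of gut-homing lymphocytes, from 23.3 to 147.7 with zebularine and from 8.8 to 33.5 without it. Neither was tested.

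ITGAE was the exception in level. It encodes the alpha E chain, known from lymphocytes that bind E-cadherin, and read 2104.5, 2807.7 and 2496.9 with zebularine and 1829.1, 2593.5 and 2571.2 without it. The groups overlapped, at a difference of 0.09 ± 0.25 (adjusted p = 0.912 by limma). Of 10 measured white blood cell markers, PTPRC included, 1 was bright enough to test (FCER1G). Their summed signal ran from 453.2 to 518.9 on zebularine and from 338.6 to 626.1 on untreated arrays.

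Of the laminin chains, LAMB3 was higher after zebularine in all 3 experiments by nearly the same amount. LAMB3 is the beta 3 chain found in the laminin that anchors epithelia through alpha 3 and alpha 6 integrins; the other two chains of that trimer were not analysed here. Its probe set 209270_at (chromosome 1) read 929.4, 743.8 and 816.3 on the zebularine arrays of experiments 1, 2 and 3, against 406.8, 384.9 and 371.9 on the untreated arrays. The values within each group lay close together and the groups were far apart. The means were 830 ± 93.5 with zebularine and 388 ± 17.6 without it (SD, n = 3 each). The log2 difference was 1.06 ± 0.25 (adjusted p = 0.0804 by limma, 0.0222 by the blocked fit), and by experiment 1.16, 0.92 and 1.10. The blocked call stood without experiment 2 (adjusted p = 0.0166 by limma) and ended without experiment 1 (0.133) or 3 (0.066), while the difference stayed between 0.98 and 1.14 whichever array or experiment was left out.

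The laminin alpha chains were not called. LAMA5, the alpha chain of the main laminins of mature kidney and vessel basement membranes, read 1834.8, 766 and 684.8 with zebularine and 2760.3, 665.3 and 1186 without it. The experiments differed more than the groups, and the difference of -0.39 ± 0.47 (adjusted p = 0.783 by limma) became 0.15 without untreated 1. LAMA4, an alpha chain of vessels and mesenchymal tissue, read 1282.5, 573.4 and 527.1 with zebularine and 553.5, 479.7 and 368 without it at its brightest probe set. It was higher in each experiment, by 0.65 ± 0.34 on average (adjusted p = 0.465 by limma, 0.161 by the blocked fit). Its second tested probe set stood at 0.23 ± 0.63, and 3 more were too dim. LAMA1 and LAMA2, the alpha chains of embryonic and muscle laminins, were too dim at all of their 1 and 4 probe sets, with no signal above 114.1.

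The beta and gamma chains that most laminins share were bright and were not called. LAMB1, the beta 1 chain, read 3899.6, 2235.1 and 3311.5 with zebularine and 3019.6, 2582.7 and 2775.7 without it at its brightest probe set. Its 2 probe sets differed by 0.14 ± 0.26 and 0.32 ± 0.27 (adjusted p = 0.87 and 0.671 by limma). LAMC1, the gamma 1 chain, read 3818.9, 2040.7 and 2054 with zebularine and 3970.8, 2928.4 and 3542.5 without it. At that probe set the differences by experiment were -0.06, -0.52 and -0.78, yet the groups overlapped through zebularine 1. Its 2 probe sets differed by -0.45 ± 0.29 and -0.12 ± 0.29 (adjusted p = 0.553 and 0.904 by limma, 0.203 and 0.801 by the blocked fit). LAMB2, the beta 2 chain of the glomerular basement membrane, stood at 556 ± 438 with zebularine and 685 ± 353 without it, a difference of -0.45 ± 0.47 (adjusted p = 0.74 by limma). LAMB4 and LAMC3 were too dim at their 2 and 1 probe sets, with no signal above 80.8.

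**Figure D3:**
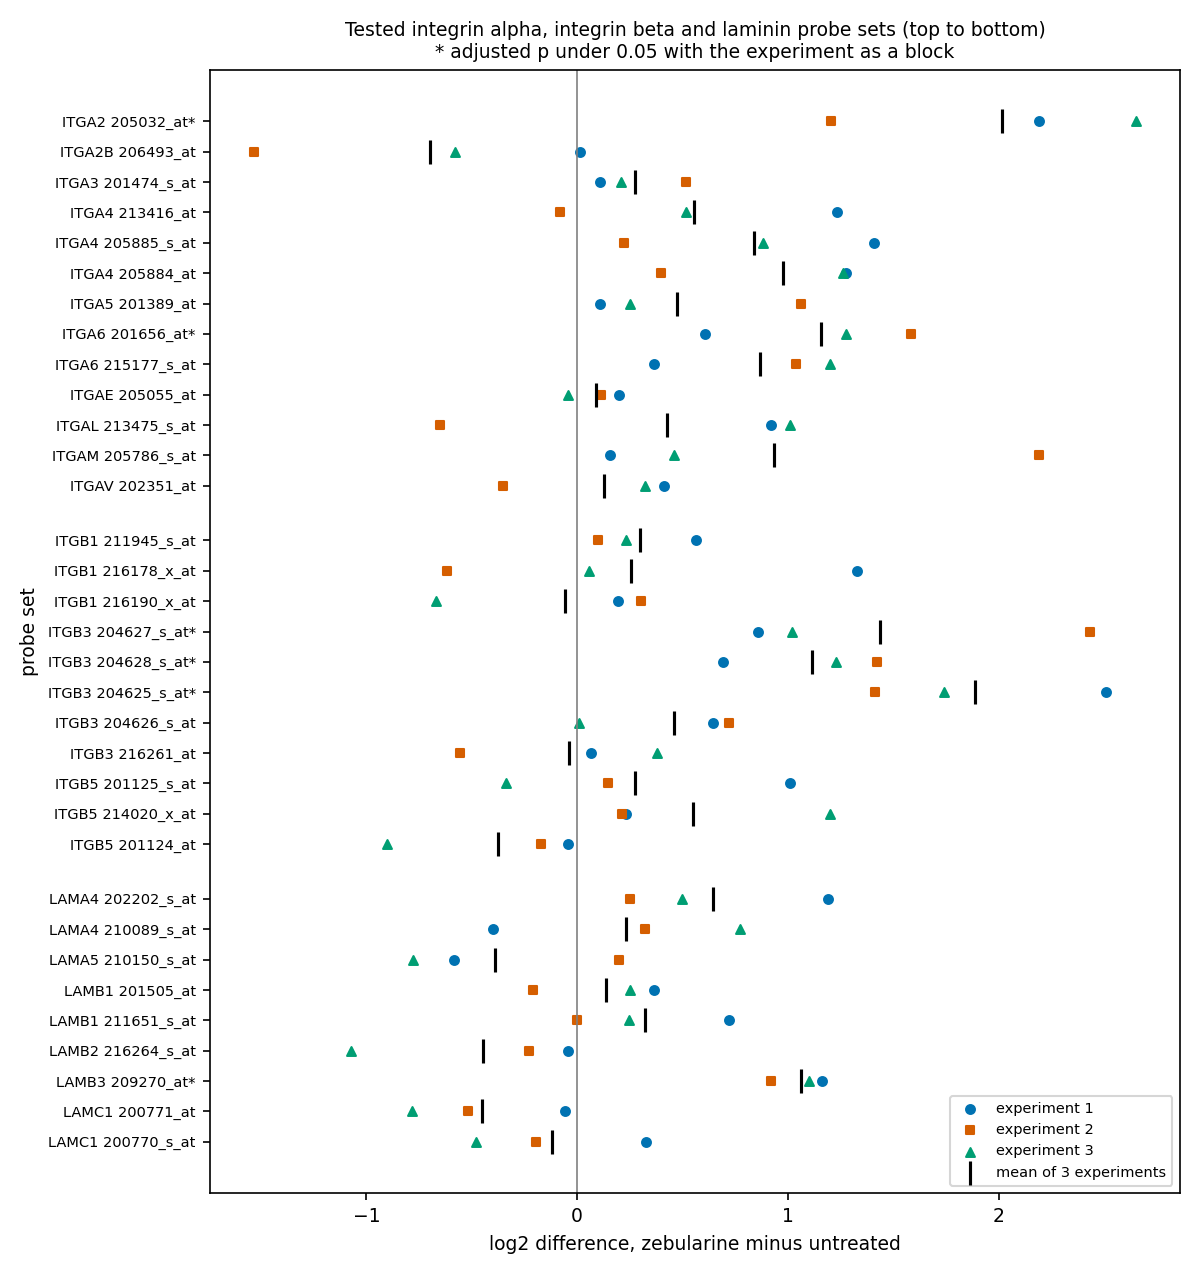
Log2 difference (zebularine minus untreated, log2(signal + 16.34) scale) of the 33 tested probe sets in experiments 1, 2 and 3 (coloured symbols) and their mean (black bar), integrin alpha chains at the top, then beta chains, then laminins. The 6 probe sets marked with a star have all 3 symbols right of 0, and so do 11 others.

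Over the 33 tested probe sets the median log2 difference was 0.32, against -0.01 over all tested probe sets, and 25 lay above 0 against 49.2% of all. It was 0.56 for the 13 alpha chain probe sets, 0.30 for the 11 of beta chains and 0.14 for the 9 of laminins. With 1 probe set per gene the laminin median had the other sign, at -0.13 over 6 genes, while that of 13 integrin genes was 0.43. By experiment the median over the 33 was 0.41, 0.21 and 0.32. In 17 of the 33 the zebularine array was higher in all 3 experiments, against 20.9% of all tested probe sets, and in 3 it was lower in all 3, against 21.8%. In 7 every zebularine array lay above every untreated array, against 8.71% of all, and in 0 the reverse held, against 8.88%. At an unadjusted p under 0.05 limma gave 8 of the 33, against 12.6% of all tested probe sets. The 25, the 17, the 7 and the 8 each include ITGA4 205884_at, which reached the filter on zebularine arrays alone. On untreated arrays alone 0 of the 33 did so. These counts describe the probe sets that passed the filter, and several of them measure the same gene: 8 genes had more than 1 tested probe set, and in 5 of those all differences had 1 sign. The exceptions were ITGB1, ITGB3 and ITGB5.

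Zebularine acts on the methylation of CpG sites, and the sequence before the outermost annotated start of each called gene was read from RefSeq's GRCh38.p14 table, with CpG in capitals. ITGB3 has no entry there. The stretch of ITGA2 is chr5:52989102-52989351 on the plus strand, that of ITGA6 chr2:172427086-172427335 on the plus strand, and that of LAMB3 chr1:209652426-209652675 on the minus strand. Each holds the 250 bases before the start, written from 5′ to 3′:
ITGA2: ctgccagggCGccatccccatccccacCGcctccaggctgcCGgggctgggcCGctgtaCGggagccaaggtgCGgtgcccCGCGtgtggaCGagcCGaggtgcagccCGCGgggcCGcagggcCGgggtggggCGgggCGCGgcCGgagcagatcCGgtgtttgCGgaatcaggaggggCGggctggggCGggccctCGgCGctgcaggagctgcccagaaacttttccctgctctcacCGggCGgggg
ITGA6: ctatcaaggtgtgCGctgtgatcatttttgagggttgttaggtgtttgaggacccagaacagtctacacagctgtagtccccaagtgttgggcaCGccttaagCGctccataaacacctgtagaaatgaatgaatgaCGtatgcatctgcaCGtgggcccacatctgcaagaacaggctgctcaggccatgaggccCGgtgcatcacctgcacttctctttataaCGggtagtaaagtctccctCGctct
LAMB3: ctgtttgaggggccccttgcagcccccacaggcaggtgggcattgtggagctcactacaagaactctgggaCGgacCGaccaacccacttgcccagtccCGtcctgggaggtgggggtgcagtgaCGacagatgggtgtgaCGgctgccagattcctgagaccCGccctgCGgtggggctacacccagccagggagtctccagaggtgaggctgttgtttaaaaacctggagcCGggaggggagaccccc

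The 3 stretches differ in CpG: 26 in that of ITGA2, 8 in that of ITGA6 and 8 in that of LAMB3. Counted over windows that also take in 50 bases after the start, the median of all 35116 RefSeq windows was 14 CpG. ITGA2 had 27, more than 71.8% of all windows. ITGA6 had 11 at its outermost start and 38 at a second start, more than 45.3% and 90.1% of all windows. LAMB3 had 10, 11 and 3 at its 3 starts. Of the genes that were not called, LAMA5 and LAMC1 had 41 each, ITGB1 had 39 at its first start and LAMB1 had 35. ITGB5 had 11, 27 and 32 at its 3 starts, and ITGA4 had 31. In that order, their brightest probe sets differed by -0.39, -0.45, 0.30, 0.14, 0.27 and 0.56. Of the 33 genes 23 had a window, and the median over their 30 windows was 13. Methylation was not analysed here, and a link between CpG counts and the differences was not tested.

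Motifs were counted in the same windows of 300 bases. The GC box GGGCGG, or CCGCCC on the other strand, was in 18 of the 30 windows, those of ITGA2, ITGA6 and LAMB3 among them, and in 45.0% of all windows. The AP-1 motif TGANTCA, which reads the same on both strands, was in 2 of the 30, at the start of ITGA5 and at the third start of LAMB3, and in 7.71% of all windows. A match describes letters in the window and nothing more.

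Of the laminins' partners in the basement membrane, 2 were called lower after zebularine in the blocked fit and 0 were called higher. Of 28 listed genes 12 were tested, 3 with a positive difference, at a median of -0.43 against -0.01 over all 7938 tested genes. By limma 0 were called, beside 0.642% of all tested genes, and 4 of the 12 had an unadjusted p under 0.05, against 13.1% of all tested genes. With the block 2.28% of all tested genes were called lower and 4.45% were called in either direction. AGRN, the heparan sulfate proteoglycan agrin, which binds laminin, read 284.2, 282.6 and 242.2 with zebularine and 1230.6, 538.8 and 446.2 without it. COL18A1, a basement membrane collagen, read 1160.1, 383.4 and 414.7 with zebularine and 2372.3, 786.3 and 1155.8 without it. AGRN stood apart between the groups, and COL18A1 was lower within each experiment only. They fell by 1.26 ± 0.28 and by 1.16 ± 0.22 on the log2 scale (standard error with the block; adjusted p = 0.0291 and 0.014 by limma in the blocked fit, 0.155 and 0.306 in the other).

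Integrin ligands other than laminins were called in both directions once the experiment was a block. Of 39 listed genes 25 were tested, 11 with a positive difference, at a median of -0.04. By limma 1 was called, beside 0.642% of all tested genes. An unadjusted p under 0.05 was found for 10 of the 25, against 13.1% of all tested genes. The 1 called was FN1, which read 2679.3, 1191.4 and 1805.7 with zebularine and 6228.7, 6263.8 and 6590.4 without it. With the block 4 were called lower and 1 was called higher, beside 2.28% and 2.17% of all tested genes. TNC, the matrix protein tenascin C, rose by 1.65 ± 0.32 with the block (adjusted p = 0.0166 by limma in the blocked fit, 0.0814 in the other). Its signal was 534.5, 482.8 and 291.8 with zebularine and 76.5, 218.1 and 110 without it. TNC is also made by fibroblasts: of 6 measured fibroblast markers 1 was bright enough to test, COL1A1, at 580, 246.6 and 367.8 with zebularine and 276.8, 183.3 and 130.3 without it (adjusted p = 0.313 by limma, 0.0817 by the blocked fit). The summed signal of the 6 ran from 464.2 to 809.1 on zebularine and from 247.6 to 466.6 on untreated arrays. COL1A1 was the brightest of the 6 on every array. In each of the 6 the groups overlapped, COL1A1 included, although within each experiment its zebularine array was higher. The part of these markers in the result was not tested. Besides FN1, the block called VCAM1, the ligand of alpha 4 integrins, CCN1, a matrix protein that binds alpha V integrins, and TGFBI, a secreted integrin ligand. These fell by 1.04 ± 0.23, 1.25 ± 0.26 and 0.55 ± 0.13 (standard errors with the block). Their adjusted p by limma was 0.0275, 0.0211 and 0.0419 in the blocked fit, and 0.26, 0.0976 and 0.362 in the other.

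Of the proteins that bind integrin tails or form adhesion sites, 46 of 58 listed were tested, 13 with a positive difference, at a median of -0.23. By limma 0 were called, beside 0.642% of all tested genes. An unadjusted p under 0.05 was found for 8 of the 46, against 13.1% of all tested genes. With the block 1 of the 46 was called higher, a share near the 2.17% of all tested genes. It was CD82, a tetraspanin that associates with integrins, at 323.6, 664.8 and 1343.5 with zebularine and 132.8, 312.8 and 491.7 without it. The level of CD82 differed more between experiments than between groups, and the zebularine array was higher by 1.19, 1.05 and 1.42 in experiments 1, 2 and 3. Its difference was 1.22 ± 0.23 (standard error with the block, 0.50 without it). The adjusted p by limma was 0.0145 in the blocked fit and 0.336 in the other. The counts over these 3 lists changed when single experiments were left out. Together 8 genes were called with the block, 1 without experiment 1, 20 without experiment 2 and 4 without experiment 3. Over all tested probe sets the blocked counts were 572, 194, 1023 and 335 in the same order. The unblocked count over the lists was 1, and 0 without zebularine 2, zebularine 3, untreated 1 or untreated 3. It was 1 without zebularine 1 and 2 without untreated 2. Over all tested probe sets the unblocked counts were 84, then 0, 15, 16, 14, 87 and 96 in the same order.

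**Figure D4:**
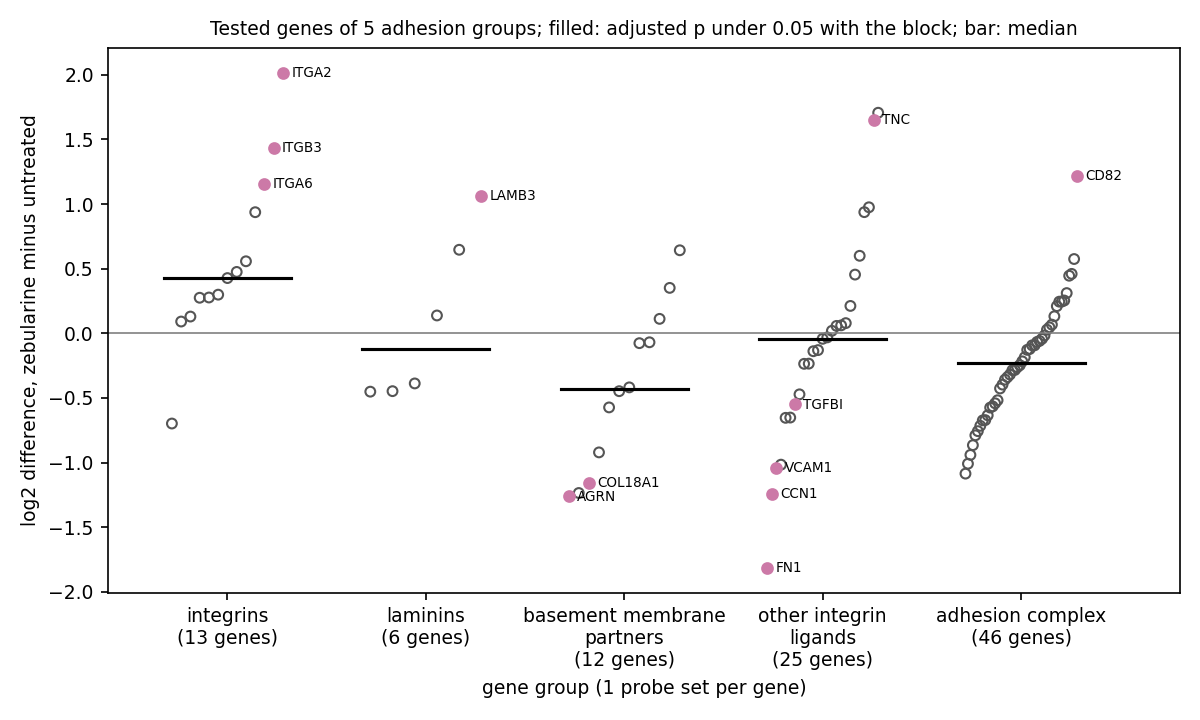
Log2 difference (zebularine minus untreated) of each tested gene of 5 groups, 1 probe set per gene, ordered within a group by its value; filled points passed limma with the experiment as a block and black bars are medians. Medians were 0.43 for 13 integrins, -0.13 for 6 laminins, -0.43 for 12 basement membrane partners, -0.04 for 25 other integrin ligands and -0.23 for 46 adhesion complex genes.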

How the data were processed

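Total RNA of 3 zebularine and 3 untreated A-498 cultures was measured on 1 Affymetrix array each. The deposited intensity values are linear probe set signals, made with MAS5 per the submitters' processing notes; the version is not given in the sources used here. Trimmed array means already lay between 499.1 and 499.8, so nothing further was normalized.

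Controls (62 of 22277 probe sets) were dropped. Values were taken as log2(signal + 16.34), the pseudocount being the median divided by 8, and 13545 probe sets reached 78.6 on at least 3 arrays. Groups and replicate numbers came from the sample titles. Zebularine was compared with untreated in limma 3.58.1 (R 4.3.3; two-sided, with a mean-variance trend, p-values adjusted by Benjamini and Hochberg's method). P-values measure the spread between cultures of 1 line. A gene in a list was represented by its tested probe set with the highest mean signal. Names came from the platform annotation: 19064 probe sets had 1 symbol, 19058 matched RefSeq by gene number and 0 changed.

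Same-numbered arrays share a code in the sample descriptions, which the labels do not explain. Their deviations from the group means correlated at 0.323, 0.210 and 0.272, and on that basis the numbers were taken to pair the arrays. No pair of arrays shared more than 0.198% of values. The fits were tested on simulated arrays. The members, lists and tests were chosen with earlier results of these data known. Values on every array are given for ITGA2, for members called with or without the block, and for the brightest probe set of the main receptor and laminin chains; of the lists, called members are named. Python 3.11.15 and matplotlib 3.10.9 drew the figures. Alternatives covered the normalization, pseudocount, filter, trend, block and single arrays.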

Additional observations from a re-analysis of the deposited data

How the results depend on the processing

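Counts of called integrin and laminin probe sets depended on the fit. The 1 call (ITGA2) became 0 without the filter on dim probe sets or without limma's mean-variance trend, stayed 1 after quantile normalization, with other pseudocounts or with a stricter filter, and was 6 with the replicate block (experiment as a block). Leaving out single arrays gave 0, and leaving out single experiments in the blocked fit gave 2 or 3. The block without the filter, an alternative chosen after seeing the data, gave 3. For genes of the 3 adhesion lists the count was 1, and 0 without the trend, 8 with the replicate block, 6 with the block and no filter, and from 0 to 20 when single arrays or experiments were left out. Over all probe sets it was 84, with 572 under the block, 55 with a pseudocount of 4.08, 53 with none, 42 without the filter and 6 without the trend. Single arrays left out gave 0 (without zebularine 2) to 96, and single experiments left out of the blocked fit 194 to 1023.

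Of the 33 tested probe sets 22 kept the sign of their difference under every alternative run on them. These were 18, or 17 for the 8 of the 33 that the stricter filter left out. The 11 others, none of them called, changed sign when arrays or experiments were left out, and the cause was not tested. The ranges were -0.11 to 0.55 for ITGA3, -0.074 to 0.20 for ITGAE, -0.036 to 0.37 for ITGAV, and -0.28 to 0.89 and -0.45 to 0.61 for the dim ITGB1 probe sets, 216190_x_at being at 0.019 with 4 times the pseudocount. They were -0.28 to 0.22 for ITGB3 (216261_at), -0.094 to 0.58 for ITGB5 (201125_s_at), -0.31 to 0.70 for LAMA4 (210089_s_at), -0.86 to 0.15 for LAMA5, -0.034 to 0.36 for LAMB1 (201505_at) and -0.42 to 0.14 for LAMC1 (200770_s_at). With 3 arrays a group precision is low throughout, and signals near background carry no firm difference.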
